A study of Mus musculus with 36 samples.

Results

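The regions described are 20 kb bins of the mouse autosomes that were late-replicating (L) in CH12 cells and in mouse embryonic fibroblasts (MEFs) but middle-replicating (M) in primary B cells. They were chosen by the state numbers of 3 replication timing (RT) maps, so the states themselves are a description of the choice and not a finding. Of 119839 autosomal bins with known bases, 2782 had this combination, 2.32% of the bins and 55.64 Mb, and adjacent bins merged into 335 runs. CH12 cells are a mouse B cell lymphoma line grown from a single clone (F3), and the map used came from cells infected with a control hairpin against LacZ (shLacZ) and selected with puromycin. CH12 cultures received IL4, CD40 and TGF beta stimulation. The primary B cells were activated splenic B cells of wild-type (WT) mice, kept on a C57BL/6 background, and no age was given for them. Repli-seq measured RT: cells copying their DNA take up the nucleotide analogue BrdU, early and late S phase cells are sorted apart, and the labelled DNA of each fraction is sequenced. Each B cell map rests on 4 libraries, 2 replicates of the early and 2 of the late fraction, out of 36 libraries in the series. The labels tie the MEF map to no sample, and the study lists it as taken from an earlier data set.

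Each condition has 1 map, and for the B cell maps the authors pooled the replicates ahead of the state calls. Values therefore carry no replicate error, and no test between the maps was made. The maps hold state numbers and no RT values, and the read depth behind a bin is unknown. The RT value at which late becomes middle can also differ between the maps. Intervals below are Wilson 95% intervals that cover counting over bins only, and neighbouring bins are not independent. Values by autosome are given as mean ± SD over 19 autosomes to show how even a share was along the genome. The files do not name the states. They were named from which states border each other, early (E) and L domains touching in 0 places, and from gene density, and GC content, which the naming did not use, fell from E to M to L in each map.

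A mammalian genome is copied in a set order, in which gene-rich, transcribed chromatin replicates early in S phase and gene-poor, AT-rich chromatin at the nuclear lamina replicates late. Between early and late domains lie timing transition regions, and the M state also covers short islands inside late chromatin and dips inside early chromatin. Domains that change their timing between cell types often do so as units far longer than a gene. Late chromatin holds large families of sensory receptor genes, the V segments of antigen receptor loci and many long genes.

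The sequences below show what the runs hold, first at the starts of genes and then in the antigen receptor V regions. The promoters are those of the first named protein-coding gene start in each of the 5 longest runs that have one, with 250 bases before and 50 bases after the start, read from the mm9 genome. Cetn3 codes for centrin 3, a centrosome protein, and Hs3st1 for a heparan sulfate sulfotransferase. Samd9l is an interferon-inducible gene, Sycp2 codes for a synaptonemal complex protein of meiosis, and Olfr700 is an olfactory receptor gene. A promoter of Casp1, an inflammatory caspase, was added after its values were seen, because it lies in a run with late chromatin of all 3 maps on both sides. Capitals mark CG dinucleotides, which read the same on both strands.
Cetn3, chr13:81922041-81922340, plus strand: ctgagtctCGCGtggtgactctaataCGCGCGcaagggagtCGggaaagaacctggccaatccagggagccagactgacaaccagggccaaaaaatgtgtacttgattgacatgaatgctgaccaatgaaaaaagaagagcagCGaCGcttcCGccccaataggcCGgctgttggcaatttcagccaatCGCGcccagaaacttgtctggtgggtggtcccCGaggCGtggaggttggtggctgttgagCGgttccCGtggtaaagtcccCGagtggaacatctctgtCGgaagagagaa
Hs3st1, chr5:40146665-40146964, minus strand: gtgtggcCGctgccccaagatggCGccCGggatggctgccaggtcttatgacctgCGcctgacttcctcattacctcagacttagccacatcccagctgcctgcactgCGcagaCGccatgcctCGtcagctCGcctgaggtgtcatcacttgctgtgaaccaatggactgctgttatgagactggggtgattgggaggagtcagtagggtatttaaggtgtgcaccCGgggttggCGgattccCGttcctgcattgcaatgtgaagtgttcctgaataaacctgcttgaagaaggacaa
Samd9l, chr6:3349522-3349821, minus strand: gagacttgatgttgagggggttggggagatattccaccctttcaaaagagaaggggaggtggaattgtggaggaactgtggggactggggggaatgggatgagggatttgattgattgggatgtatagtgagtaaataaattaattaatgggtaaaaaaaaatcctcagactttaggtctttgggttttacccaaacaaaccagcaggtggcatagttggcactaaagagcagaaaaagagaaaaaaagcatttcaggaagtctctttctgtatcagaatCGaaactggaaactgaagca
Sycp2, chr2:178142341-178142640, minus strand: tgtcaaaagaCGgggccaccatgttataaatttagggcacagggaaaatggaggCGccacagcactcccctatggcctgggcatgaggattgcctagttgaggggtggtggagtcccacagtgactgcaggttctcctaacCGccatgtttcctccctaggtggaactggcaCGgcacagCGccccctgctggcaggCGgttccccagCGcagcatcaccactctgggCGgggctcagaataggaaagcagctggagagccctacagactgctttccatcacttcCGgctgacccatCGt
Olfr700, chr7:113949925-113950224, minus strand: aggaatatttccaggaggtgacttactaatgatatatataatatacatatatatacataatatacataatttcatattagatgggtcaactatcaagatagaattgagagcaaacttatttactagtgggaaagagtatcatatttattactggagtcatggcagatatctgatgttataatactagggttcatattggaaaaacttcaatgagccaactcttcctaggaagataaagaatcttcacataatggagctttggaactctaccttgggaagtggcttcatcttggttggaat
Casp1, chr9:5298267-5298566, plus strand: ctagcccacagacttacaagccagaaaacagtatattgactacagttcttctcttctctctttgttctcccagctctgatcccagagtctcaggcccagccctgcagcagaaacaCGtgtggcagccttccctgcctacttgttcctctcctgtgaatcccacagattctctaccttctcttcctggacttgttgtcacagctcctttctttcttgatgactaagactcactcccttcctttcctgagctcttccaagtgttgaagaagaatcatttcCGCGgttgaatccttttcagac

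These 6 promoters ran from CG-rich to CG-free. The Cetn3 promoter held 18 CG dinucleotides, that of Hs3st1 11 and that of Sycp2 10. Casp1 had 3, Samd9l 1 and Olfr700 0, and the GC content of the Olfr700 window was 32.3%.

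The longest run covers most V segments of the immunoglobulin heavy chain locus. V segments are the pieces that V(D)J recombination joins to D and J segments in developing B cells, and each carries a recombination signal just behind its 3′ end. The signal is built of a heptamer, a spacer and a nonamer. The windows below are the 60 bases that follow 2 heavy chain V segments of the longest run and 1 T cell receptor beta V segment of another run. They are the first in their runs with an exact match to both parts, with the heptamer CACAGTG and the nonamer ACAAAAACC in capitals.
Gm16700, chr12:115117247-115117306, minus strand: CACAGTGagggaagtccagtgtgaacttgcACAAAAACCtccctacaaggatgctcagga
Gm16610, chr12:115202539-115202598, minus strand: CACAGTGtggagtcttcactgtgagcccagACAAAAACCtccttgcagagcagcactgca
Trbv1, chr6:40841885-40841944, plus strand: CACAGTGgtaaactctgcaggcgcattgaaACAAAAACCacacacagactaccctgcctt

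In all 3 windows the heptamer began at base 1 and the spacer was 23 bases long. Searched on the strand of the segment only, the exact heptamer was found in the 60 bases behind 62 of the 81 heavy chain V segments in member bins (76.5%, interval 66.2 to 84.4%), in 54 of them at base 1. It was found behind 18 of the 31 other heavy chain V segments (58.1%, 40.8 to 73.6%) and behind 7 of the 18 T cell receptor beta V segments in member bins (38.9%, 20.3 to 61.4%). Behind all 21418 autosomal protein-coding genes, 0.504% of windows of this length held it. An exact nonamer behind the heptamer was present for 2 of the 81 segments, and a missing match says only that these letters are not in the window.

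Member bins were a small share of the late chromatin that CH12 cells and MEFs had in common. Of 32562 bins late in both maps, 2782 were M in primary B cells, 8.54% (8.24 to 8.85%), 128 were E (0.393%), and the other bins, 29652, were late in all 3 maps. The share depended on domain edges, and with bins within 100 kb of an edge in any map left out, 779 members remained and the share was 3.02%. By autosome the M share averaged 9.23 ± 3.92% (SD over 19 autosomes), from 3.06% on chromosome 8 to 17.2% on chromosome 13. All 19 autosomes held members, from 58 bins on chromosome 8 to 273 on chromosome 6, with a median of 141. When the same count was turned to the other maps, 1.98% of bins late in primary B cells and MEFs were M in CH12 cells (598 of 30250) and 30.2% of bins late in both B cell maps were M in MEFs (13308 of 44138). Beside these shares, the part of autosomal bins that each map called late was 50.0% in CH12 cells, 38.3% in primary B cells and 29.1% in MEFs.

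**Figure D1:**
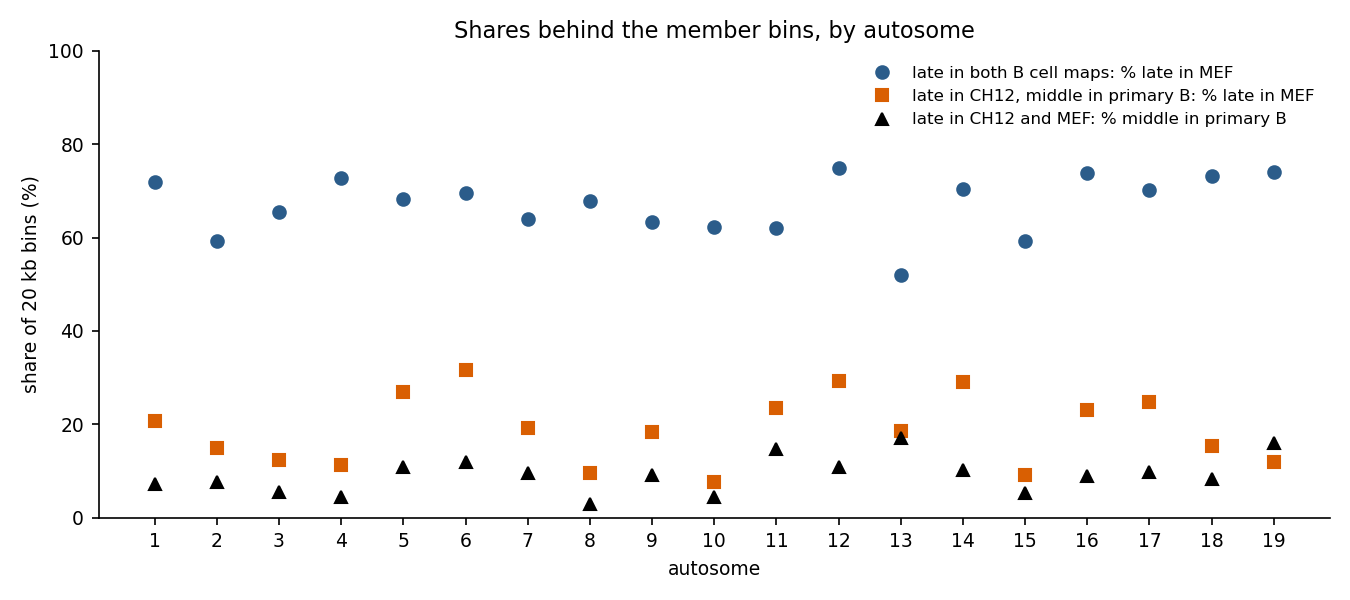
Shares of 20 kb bins in percent (vertical axis) for each of the 19 autosomes (horizontal axis), with circles for the share late in MEFs among bins late in both B cell maps, squares for that share among bins late in CH12 and M in primary B cells, and triangles for the share M in primary B cells among bins late in CH12 and MEFs. The squares lie below the circles on all 19 autosomes, and the triangles run from 3.06% to 17.2%.

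Most chromatin that was late in CH12 cells and M in primary B cells was not late in MEFs. Of 14941 such bins, 18.6% (18 to 19.3%) were late in MEFs and are the members, against 67.2% (66.7 to 67.6%) of the 44138 bins late in both B cell maps and 6.63% (6.29 to 6.98%) of the 20507 bins M in both. By autosome the shares were 18.8 ± 7.42% and 67.1 ± 6.24% for the first pair, and the first was lower on 19 of 19 autosomes. The lowest member share was 7.73% on chromosome 10 and the highest 31.6% on chromosome 6, as the plot of shares by autosome shows. These shares, like those of bins late in CH12 cells and MEFs above, are made of the states that the rule used. They are a description only.

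The runs were mostly short. Their median length was 120 kb, with quartiles of 60 and 220 kb, and the longest measured 1400 kb. RT had been smoothed over a span of 300 kb. In 282 of 335 cases (84.2%) a run fell below that span, and 39 were a single bin. The 53 runs of 300 kb or more held 1210 bins, 43.5% of the members. The 12 longest runs alone held 457 bins (16.4%). No protein-coding gene started in 207 runs, and 144 overlapped no protein-coding gene.

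**Figure D2:**
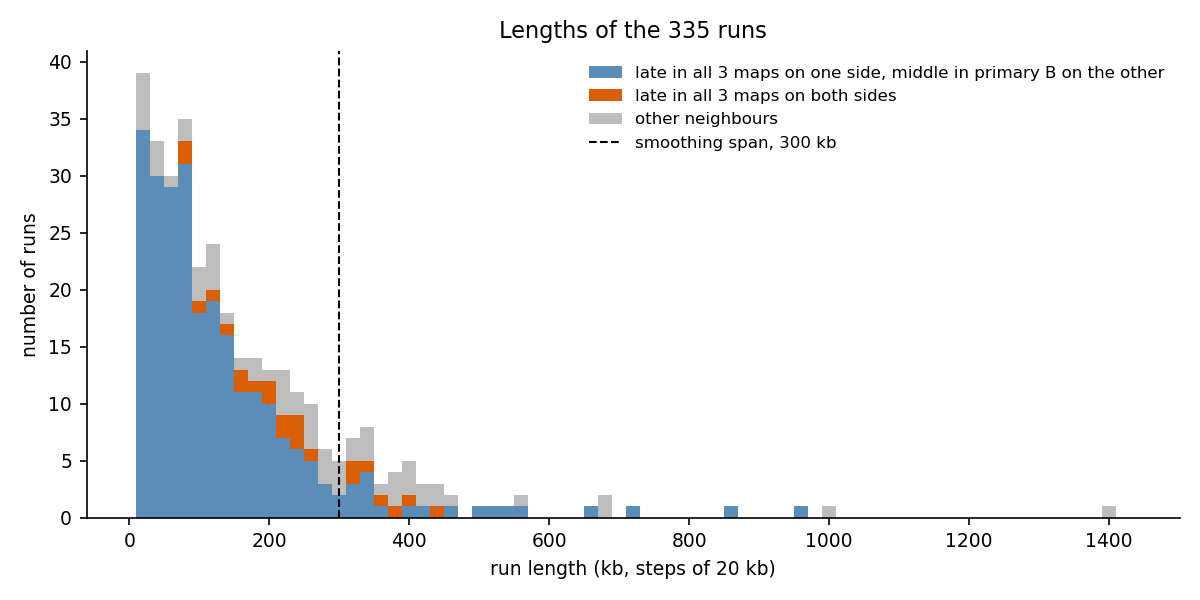
Number of runs (vertical axis) by run length in kb (horizontal axis, steps of 20 kb), coloured by the states that border each run. Most runs fall left of the dashed line at the 300 kb smoothing span, and the longest run, at 1400 kb, stands at the right end.

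Most runs were edges of M stretches rather than stretches of their own. Of the 670 sides of the runs, 307 bordered bins late in all 3 maps, 195 bordered bins late in CH12 and M in the other 2 maps, 131 bordered bins M in both B cell maps and late in MEFs, and 13 bordered bins that were E in primary B cells and late in the others. In 251 runs (74.9%, median 100 kb) one side was late in all 3 maps and the other was M in primary B cells. Another 36 runs had M chromatin of primary B cells on both sides, and 23 runs (6.87%, median 220 kb, 80 to 440 kb) were M islands with chromatin late in all 3 maps on both sides. Members touched 295 of the 1251 autosomal M domains of primary B cells and made up a median of 26.2% of each, and 33 domains consisted of members only.

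By the neighbours of the M domain in the primary B cell map, 52.4% (50.5 to 54.2%) of members lay in transitions with E on one side and L on the other, 38.3% (36.5 to 40.1%) in islands between L domains and 3.49% (2.87 to 4.24%) in dips between E domains. Among all 38110 M bins of primary B cells these shares were 49.0%, 23.02% and 25.4%. They were 52.8%, 28.8% and 16.9% in bins late in CH12 and M in primary B cells that were not late in MEFs, and 52.5%, 32.4% and 10.8% in bins M in both B cell maps and late in MEFs. The rule asks for late states in the other maps, which bears on these shares, so they are a description only.

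Members lay shallower inside late domains than chromatin late in all 3 maps. Their median distance to the edge of the late domain was 220 kb in CH12 cells and 180 kb in MEFs, against 960 and 560 kb for bins late in all 3 maps. A distance of at least 300 kb from the edge in both maps was reached by 598 members, 21.5% (20.01 to 23.1%), against 65.6% of bins late in all 3 maps. Members lay deeper in CH12 late domains than bins late in CH12 and M in primary B cells but not late in MEFs. That class had a median of 140 kb to the CH12 edge. In it 31.2% of bins were at least 300 kb inside the CH12 domain, against 42.1% of members. The median distance from members to the nearest E bin of primary B cells was 830 kb. In 48 runs at least 1 bin lay at least 300 kb inside both late domains, and 20 runs lay there entirely. The domain edges come from the same states that the rule used, so these distances are a description only.

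**Figure D3:**
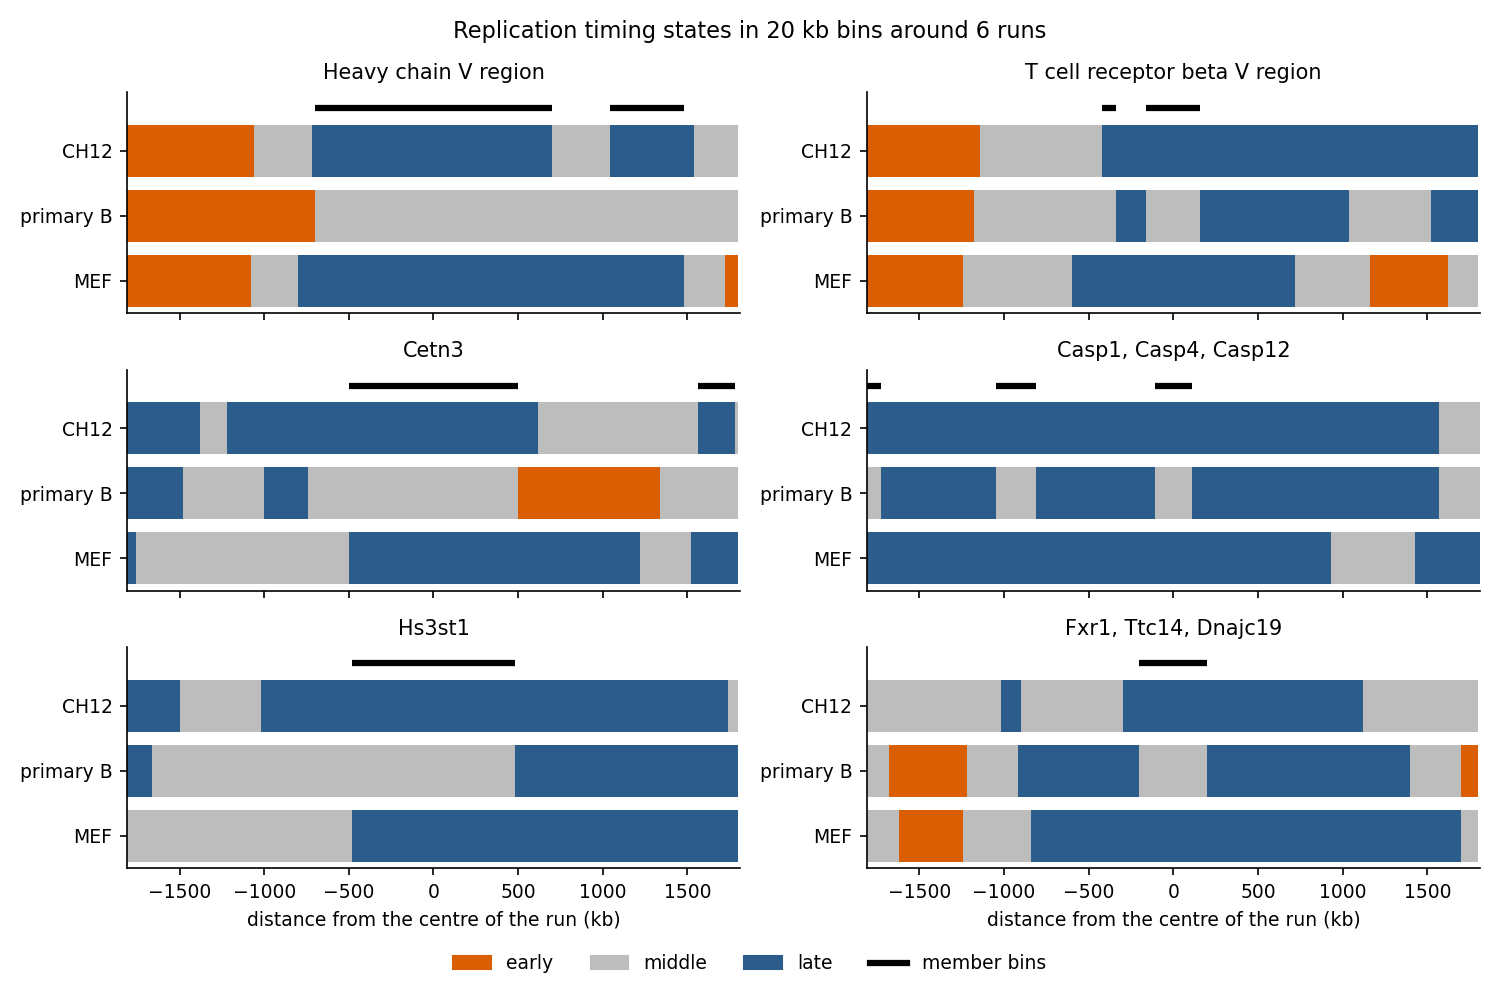
RT states in 20 kb bins of the CH12, primary B and MEF maps (rows) around 6 runs, by distance in kb from the centre of each run (horizontal axis), with orange for early, grey for middle, blue for late and a black line over member bins. The heavy chain V, Cetn3 and Hs3st1 runs continue M chromatin of primary B cells on at least one side. The T cell receptor beta, Casp1 and Fxr1 runs are M islands bordered on both sides by chromatin late in all 3 maps.

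The longest run, chr12:114980001-116380000 (1400 kb), lay in the heavy chain V region. From the constant gene Ighm outward, primary B cells were E up to the start of the run and M beyond it, while CH12 cells went from M to late at 20 kb before the run. MEFs were late from 100 kb before the run to beyond its far end. The run held 63 V segments and 1 protein-coding gene, Gm7112. Past its far end, 340 kb with 14 V segments were M in both B cell maps and late in MEFs, followed by a second run of 440 kb, chr12:116720001-117160000, with 18 V segments. Together 81 of the 112 annotated heavy chain V segments started in member bins, and none of the 30 D, J and constant gene segments on chromosome 12 did. Ighv1-73, which started in the second run, is annotated as protein-coding and is not among the V segments counted. V segments resemble each other in sequence, and for the B cell maps the authors kept uniquely aligned reads only. How the reads of the MEF map were aligned is not given in the sources used here. V(D)J joining also changes this locus in B cells, while the bins follow the reference genome. How such joining bears on the states of the B cell maps here was not tested.

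A T cell receptor locus gave a second V region. The run chr6:40840001-41160000 (320 kb) held 18 of the 23 annotated V segments of the T cell receptor beta span, with Trbv1, Trbv2 and Trbv3 among them. It also held 6 protein-coding gene starts, among them that of the protease gene Prss58. Both its sides were late in all 3 maps, including the 460 kb with the remaining 5 V segments. Over all autosomes, 99 of 355 V segments started in member bins (27.9%), against 2.06% of gene starts of all types (713 of 34653), and these 99 came from 3 runs at 2 loci. The 97 kappa light chain V segments gave 0 members, since 1 of them was late in CH12 cells, and 91 were M and 6 E in primary B cells. The 108 V segments on chromosome 14, where T cell receptor alpha and delta lie, gave 0 members as well. Of these, 79 were late in CH12 cells and 95 M in primary B cells, but 106 were M in MEFs.

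Among the other long runs, gene-poor chromatin was common. The second longest, chr13:81880001-82880000 (1000 kb), held Cetn3 and part of Mblac2 and bordered E chromatin of primary B cells on one side. The third, chr5:39360001-40320000 (960 kb), held Hs3st1 as its single protein-coding gene. No protein-coding gene overlapped chr11:24580001-25440000 (860 kb), chr3:20520001-21240000 (720 kb), chr17:3980001-4660000 (680 kb) or chr2:53280001-53840000 (560 kb), and the run on chromosome 17 held no gene start of any type. The run chr11:25620001-26160000 (540 kb) had 25 of its 27 bins in 5730522E02Rik, a gene of 608 kb.

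The remaining long runs held small groups of genes with unlike roles. Samd9l, Hepacam2 and Ccdc132 lay in chr6:3000001-3680000 (680 kb), which begins at the end of the unknown bases at the chromosome start. This run also held part of Calcr, the calcitonin receptor gene, with the microRNA genes Mir653 and Mir489 in it. On chromosome 2, chr2:177920001-178580000 (660 kb) held Sycp2, the protein phosphatase subunit gene Ppp1r3d, 9030418K01Rik and the cadherin gene Cdh26. The run chr7:113940001-114500000 (560 kb) held 22 protein-coding starts, most of them olfactory receptor genes, with Nlrp14 and Rbmxl2, both known for their expression in germ cells. Smarcad1, a chromatin remodelling enzyme, and Hpgds, the haematopoietic prostaglandin D synthase, lay in chr6:64880001-65400000 (520 kb).

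Of 1468 autosomal microRNA genes, 21 started in members (1.43%), beside 2.06% of genes of all types. RefSeq gave mature sequences for Mir489 and Mir653, shown because both lie in one of the 12 longest runs, with the seed (bases 2 to 8) in capitals. The 4 arms share no seed.
miR-489-3p: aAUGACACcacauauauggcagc
miR-489-5p: uGUCAUAUgugugaugacacuuucu
miR-653-3p: uUCACUGGaguuuguuucagu
miR-653-5p: gUGUUGAAacaaucucuacug

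The 23 islands with chromatin late in all 3 maps on both sides lay on 12 autosomes and held 270 bins, 9.71% of members. They sat inside large late domains, with a median length of 3860 kb in CH12 cells and 3220 kb in MEFs, and 16 of the 23 were shorter than the smoothing span. Protein-coding genes started in 17 of them, 43 starts or 7.96 per Mb, against 3.70 per Mb (17 starts) in the 100 kb on each side. The GC content of islands and flanks was alike, 39.3% and 39.2%. The genes named here were chosen after their values were seen.

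Several islands held a few genes in otherwise late chromatin. On chromosome 9, the island chr9:5180001-5400000 (220 kb) held Casp1, Casp4 and Casp12, the inflammatory caspases, and its nearest edge of a late domain was 1460 kb away in CH12 cells and 820 kb in MEFs. The same late domains of CH12 cells and MEFs held an island with Aasdhppt and Kbtbd3 (240 kb, chr9:4240001-4480000) and one with Alkbh8, a tRNA modification enzyme, and Cwf19l2 (340 kb, chr9:3220001-3560000). The island chr3:33640001-34040000 (400 kb) held Fxr1, an RNA-binding protein gene, with Ttc14, Ccdc39, a cilia gene, and Dnajc19, a mitochondrial import gene. This island was less deep, 100 kb from the edge of its CH12 late domain, below the smoothing span, and 640 kb from that in MEFs. Pou4f1, a transcription factor of sensory neurons, and Rnf219 shared a 200 kb island on chromosome 14, and Pgk2, the phosphoglycerate kinase of sperm, shared a 360 kb island on chromosome 17 with Crisp1 and Crisp3. The farthest island from any edge of a CH12 late domain, 5200 kb away, held the start of Gbe1, the glycogen branching enzyme, on chromosome 16.

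GC content was not used to choose the members, and gene density entered only through the naming of the states. Their GC content was 39.7%, between 38.2% in chromatin late in all 3 maps and 41.7% in bins late in CH12 and M in primary B cells that were not late in MEFs. Over 19 autosomes the members averaged 39.6 ± 0.687%, higher than bins late in all 3 maps on 19 of 19 autosomes and lower than the CH12-late, primary-B-middle bins not late in MEFs on 19 of 19. The mean difference was 1.36 ± 0.80 percentage points to the first class and -2.10 ± 0.82 to the second. Bins M in both B cell maps and late in MEFs had 39.8%, and the members were higher on 10 and lower on 8 of the 18 autosomes with such bins.

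Protein-coding genes started at 6.67 per Mb in member bins, against 2.79 in chromatin late in all 3 maps, 6.01 in bins late in CH12 and M in primary B cells but not late in MEFs, and 8.94 over all autosomal bins. The members were denser than bins late in all 3 maps on 17 of 19 autosomes. Sensory receptor genes weighed on this value. With olfactory and vomeronasal receptor genes left out, members had 3.95 starts per Mb, late chromatin of all 3 maps 1.68 and the CH12-late, primary-B-middle bins not late in MEFs 5.37, so that members were higher than the first on 18 of 19 autosomes and lower than the second on 15 of 19. Bins M in both B cell maps and late in MEFs had 8.13 starts per Mb, and 6.44 without receptor genes. Without these genes, members were lower on 14 and higher on 4 of the 18 autosomes with such bins. Protein-coding genes overlapped 37.4% of member bins and 24.9% of bins late in all 3 maps.

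**Figure D4:**
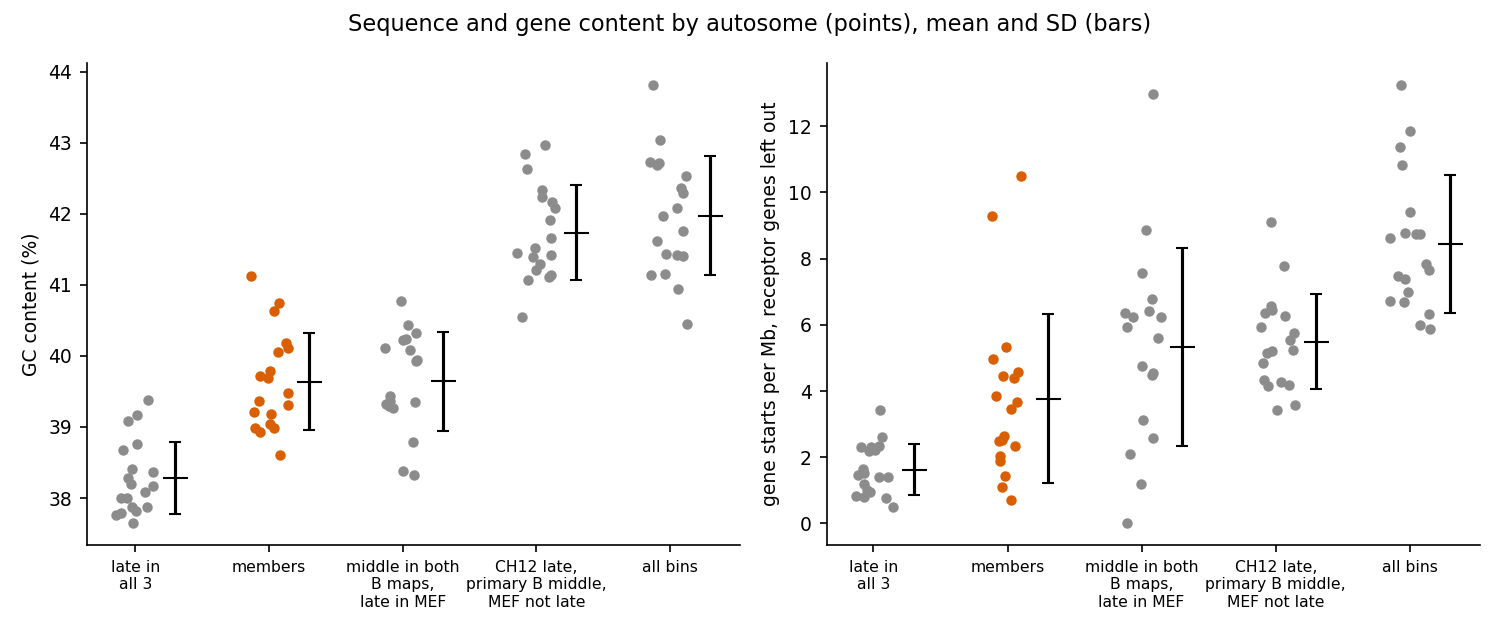
GC content in percent (left) and protein-coding gene starts per Mb without olfactory and vomeronasal receptor genes (right) by class of bins (horizontal axis), with a point per autosome, orange for the members, and the mean and SD over autosomes as a bar beside the points. Members lie above bins late in all 3 maps and below bins late in CH12 and middle in primary B cells but not late in MEFs.

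Much of this contrast was also seen next to the runs. In the 251 runs with one late and one M side, the runs had 6.09 protein-coding starts per Mb and the first 100 kb on the late side had 6.37, while the first 100 kb on the M side had 8.80. Without receptor genes these densities were 3.20, 3.43 and 6.32 per Mb. Pooled over these runs, GC content rose from the late to the M side. It was 39.3% at 200 to 300 kb out on the late side and 39.7% in the adjoining 100 kb. It was 40.0% in the runs, 40.4% in the first 100 kb on the M side and 41.4% farther out. Such pooled values cannot show whether GC content steps at the border of a single run. In 150 of the 251 runs (59.8%) GC content was above that of the late flank, and in 168 (66.9%) it was below that of the M flank.

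**Figure D5:**
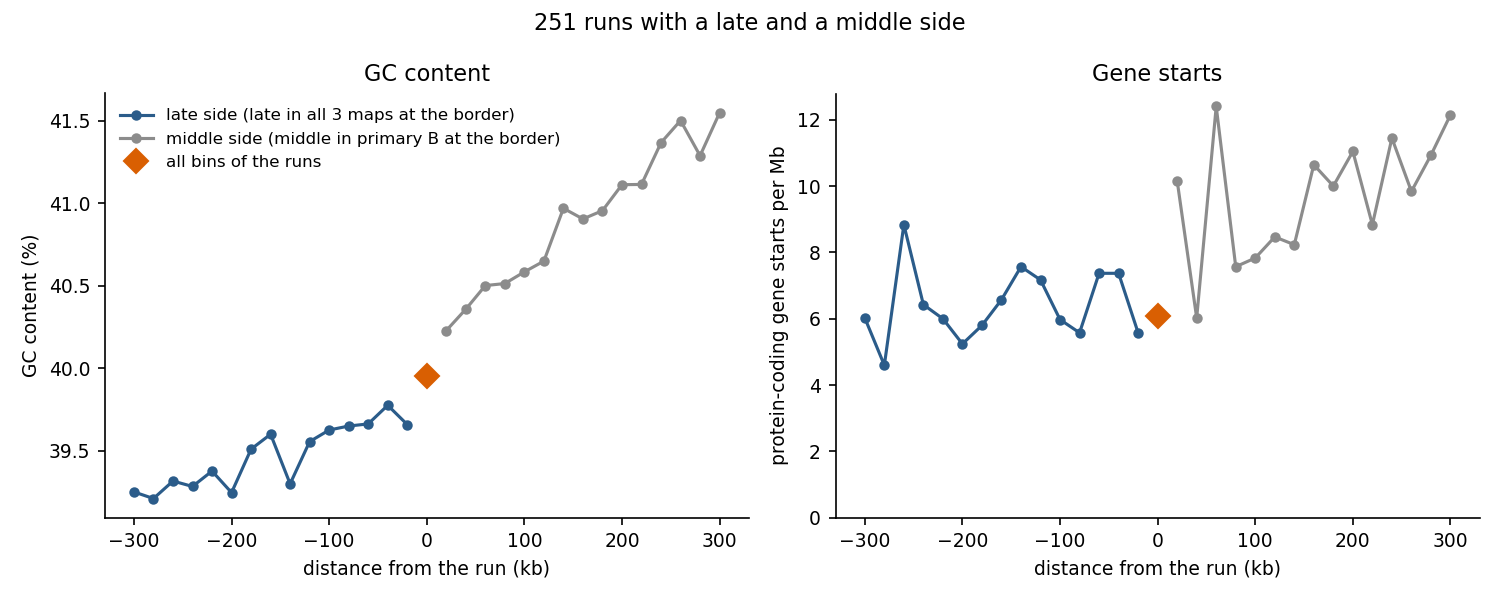
GC content in percent (left) and protein-coding gene starts per Mb (right) by distance in kb from the 251 runs with one late and one M side, with blue for bins on the late side, grey for bins on the M side and an orange diamond for all bins of the runs. GC content climbs from the late to the M side through the value of the runs, and the gene density of the runs lies within the range of the late side.

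Of 21418 autosomal protein-coding genes, 371 started in member bins (1.73%), in 128 runs. Among the 2046 protein-coding genes that started in bins late in both CH12 cells and MEFs, 18.1% were members, a share of genes above the 8.54% of bins. Of the 371 genes, 151 (40.7%) were olfactory or vomeronasal receptor genes, from 29 runs, close to the 39.8% among genes late in all 3 maps. Another 93 had predicted or clone-based names.

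The share of CG-rich promoters in members lay between that of chromatin late in all 3 maps and that of all autosomal promoters. Without receptor genes, 70 of 220 promoters of members (31.8%, 26.0 to 38.2%) held at least 10 CG dinucleotides in the 300 bases, against 22.6% (20.1 to 25.3%) of promoters late in all 3 maps, 46.5% (43.8 to 49.2%) of those late in CH12 and M in primary B cells but not late in MEFs, and 58.5% of all autosomal promoters. Promoters M in both B cell maps and late in MEFs were close to the members, at 30.3% (23.96 to 37.5%). Among the 151 receptor genes 1 promoter reached that count, that of Olfr658. The CG-rich promoters included Pou4f1 with 57 CG dinucleotides, Reln, the reelin gene, with 47, Ppp1r3d with 45 and Fxr1 with 43.

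The lists of B cell genes gave no members, and apart from the AID and class switching list they could have given none. These lists count protein-coding genes, so they leave out the genes annotated as V segments. Of the 112 such segments of the heavy chain, 81 started in member bins. No gene of the lists of B cell transcription factors (26 genes), germinal centre and plasma cell regulators (29), B cell receptor and surface genes (31), cytokines and their receptors (61) or T cell identity genes (32) started in a bin late in both CH12 cells and MEFs. The same was true of the 41 fibroblast and matrix genes and the 53 interferon-inducible genes listed. Samd9l, an interferon-inducible gene named above as a member, is not on that list. Of 25 genes of the AID and class switching list, 1 started in such a bin and was not M in primary B cells. Over the 12 lists of single genes, 6 of 526 genes were members (1.14%), beside 1.73% of all protein-coding genes.

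Those 6 came from 3 lists. Clec4n, Clec4d and Clec4e, C-type lectin receptors by which myeloid cells sense microbes, started in a run of 260 kb on chromosome 6 and were 3 of the 33 myeloid identity genes (9.09%, from 1 run), beside 1.73% of all protein-coding genes. Orc5, a subunit of the origin recognition complex, started in a run of 340 kb on chromosome 5 together with Reln and was 1 of 46 origin licensing and firing genes (2.17%), near that background. Among 130 neuronal genes, 72 started in bins late in CH12 cells and MEFs, and 2 of these were members (2.78%, beside 18.1% of all protein-coding genes late in both), Cntn1, a neuronal adhesion molecule, and Grin2a, a glutamate receptor subunit.

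Of 59 serpin genes, 8 started in bins late in both CH12 cells and MEFs, and these 8 were M in primary B cells. Members were 13.6% of the family, beside 1.73% of all protein-coding genes and 18.1% of those late in both maps. Serpinb3d, Serpinb3b, Serpinb3c, Serpinb11 and Serpinb7, protease inhibitor genes of clade B, lay in 1 run of 380 kb on chromosome 1 and Serpinb8 in another of 60 kb, while Serpini1, the neuroserpin gene, and Serpini2 shared a run of 460 kb on chromosome 3. These 8 genes therefore stand for 3 runs. A total of 5 of 61 natural killer and C-type lectin receptor genes were members (8.20%), or 33.3% of the 15 late in both. Clec4n, Clec4d and Clec4e, from 1 run, are among these 5 and were already counted as myeloid identity genes. The Zfp family gave 7 of 378 (1.85%), near the 1.73% of all protein-coding genes. Defensin (18 genes), keratin (19), taste receptor (25) and pregnancy-specific glycoprotein (7) genes late in both maps gave 0 members. A total of 19 of the 30 lists held no member.

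Receptor families followed the background of late genes. Of 648 olfactory receptor genes in bins late in CH12 cells and MEFs, 116 (17.9%) were M in primary B cells, and of 167 vomeronasal receptor genes 35 (20.96%), beside the 18.1% of all protein-coding genes there. They were unevenly placed. On chromosome 7, 48 of 233 olfactory receptor genes were members, from 5 runs, on chromosome 16 18 of 35 from 1 run and on chromosome 19 18 of 63 from 2 runs, and on chromosome 2 8 of 282. On chromosome 6, 20 of 61 vomeronasal receptor genes were members, from 4 runs. These families hold near-identical copies, and the states of the B cell maps there rest on uniquely aligned reads.

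Long genes crossed the borders of the runs. Of 188 protein-coding genes over 500 kb, 22 had a member bin in their body (11.7%), against 2.16% of all protein-coding genes. Longer genes span more bins, and members were 2.64% of the 8299 bins in these bodies, near the 2.32% of all autosomal bins. Immp2l, which codes for a mitochondrial inner membrane peptidase subunit, had 29 member bins of 66 and started in chromatin E in primary B cells. The 5730522E02Rik body had 25 of 31, that of Fhit, a gene at a common fragile site, 21 of 81, and that of March1, a ubiquitin ligase gene of antigen-presenting cells, 20 of 43. Epha6, an ephrin receptor gene, had 15 of 49 and Sdk1 13 of 50. The March1 run, chr8:68360001-68760000 (400 kb), lay at least 1360 kb from the edge of its CH12 late domain and 480 kb from that of its MEF late domain, and bordered E chromatin of primary B cells on one side and chromatin late in all 3 maps on the other. March1 itself started outside the run, in chromatin late in all 3 maps.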

How the data were processed

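Repli-seq domain maps of shLacZ CH12 cells, WT primary B cells and MEFs were used. According to the methods and the submitters' processing notes, reads were trimmed with Trim Galore 0.6.5, aligned to mm9 with BWA 0.7.17, kept where unique with SAMtools 1.9, merged over replicates and freed of duplicates. From early and late reads a log2 ratio was formed per 20 kb window (deepTools), loess-smoothed over 300 kb, and split by a hidden Markov model into 3 states. The deposited maps hold a state number per domain and no counts or RT values. The processing of the MEF reads is not given in the sources used here.

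State numbers were named from the order of states along the genome and gene density. CH12 and primary B maps use 0 for L, 1 for M and 2 for E, and the MEF map uses 1, 2 and 0. Domains were set on the NCBIM37 reference (mm9), whose chromosome lengths they match on 20 of 20 chromosomes, and 3785 autosomal bins of only unknown bases were dropped. Genes of GENCODE M1 (34653 on autosomes) were placed by their start. The 12 longest runs, list genes in members and genes over 500 kb were named by rule, and others after their values were seen. The members and lists were chosen with earlier results of these data known. Functions were tested on simulated maps, where 7 of 7 checks gave the planted value. Scripts ran in Python 3.11.15 (pandas 2.3.3, numpy 2.4.6, scipy 1.17.1), with plots by matplotlib 3.10.9. The other 5 groups of the series were not analysed here. 1 gene of chromosome X is not reported here.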

Additional observations from a re-analysis of the deposited data

How the results depend on the processing

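The main dependence was on domain edges. With bins within 100 kb of an edge in any map left out, 779 of the 2782 member bins were left, 3.02% of late-in-both bins were M in primary B cells, 15.6% of CH12-late, primary-B-middle bins were late in MEFs, 29.3% of members lay in islands and 39.5% lay far inside both late domains. With chromosome X added, these shares were 9.77%, 22.1%, 42.6% and 26.9%. Moving the distance that counts as far inside from 300 kb to 200 or 500 kb gave 30.7% and 10.7%. Counting all gene types gave 12.8 starts per Mb of members. In all, 36 of 51 alternative values were labelled as close to the reported ones and 15 as moved, with GC content among the close ones. The label was broad. It took in 3.95 protein-coding starts per Mb without receptor genes, against 6.67 with them. It also took in a median run length of 200 kb against 120 kb. Trimming 3 Mb from every chromosome start returned the main value each time, so those alternatives tested nothing. Of the differences between classes of bins, 0 changed sign, while counts and shares could not. The median run length was 200 kb over runs of at least 100 kb and 120 kb under the other alternatives run for it. The alternatives that left out receptor genes or V region runs were added once the data had been seen. No paired analysis was possible because each condition has 1 map, and for the same reason no replicate could be left out. Most runs are shorter than the smoothing span, and depth is unknown.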

Other observations

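Chromosome X was not part of the autosomal count and held a larger share of the same combination. Of its 8138 bins with known bases, 848 (10.4%) were late in CH12 cells and MEFs and M in primary B cells, in 77 runs with a median of 160 kb. Of 4597 bins late in both other maps, 18.4% (17.4 to 19.6%) were M in primary B cells, against 17.2% on chromosome 13, the highest autosome. On this chromosome, 97 of 932 protein-coding genes started in such bins (10.4%). The sex of the cells behind the maps was not given in the labels, and how the difference relates to it was not tested.

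The mirror combination, late in primary B cells alone among bins M in the other 2 maps, held 1033 of 16817 bins (6.14%). By autosome it ranged from 0.234% on chromosome 19 to 14.3% on chromosome 1.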
